A study of Mus musculus with 3 samples.

Results

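The IL15 and interferon gamma axis is described here by 8 genes, Il15, Il15ra, Il2rb, Il2rg, Ifng, Ifngr1, Ifngr2 and Irf1. They were taken by symbol from the 32247 gene symbols of a single-cell count matrix, and all 8 were present with UMIs. The cells came from whole mouse uterus at pregnancy day 7.5, dissociated with trypsin and captured in droplets with a 3' chemistry. The series names 3 such samples, and 1 of them was analysed. The labels of that sample give no genotype or strain and state that females were group-housed on normal chow before mating, but not how many animals were pooled. The matrix held 25 UMIs of the added sequence sfGFP-Myc and 1 of iCre, which does not settle a genotype. The samples Prl8a2-iCre with Sun1-GFP, and Sun1-GFP without Cre, are not analysed here. With 1 library there is no replicate, so no p-value is given and every interval covers counting error only.

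IL15 is a cytokine that is largely presented to neighbouring cells on the IL15 receptor alpha chain of the cell that makes it. The responding cell needs the beta chain, Il2rb, and the common gamma chain, Il2rg, and in the mouse uterus NK cells depend on this signal for their development. Uterine NK cells are in turn a known source of interferon gamma, which acts through a receptor of a ligand-binding chain, Ifngr1, and a signalling partner chain, Ifngr2. Receptor engagement induces the transcription factor gene Irf1 and, with it, genes of antigen presentation and of the GTPases that defend cells from within.

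The library held 2775 barcodes, of which 1812 cells were kept, with a median of 4509.5 UMIs and 1866 detected genes per cell. A UMI is a molecular tag that counts 1 captured RNA molecule. Clustering without the 8 genes and without the pathway lists gave 21 clusters, and marker genes put them into 10 classes and 1 unnamed cluster of 39 cells. The immune side held 309 NK-like, 269 mononuclear phagocyte-like, 43 T cell-like and 23 B cell-like cells. The other classes were undifferentiated stroma with 416 cells, epithelium with 374, decidual stroma with 149, mesothelium with 88, endothelium with 67 and pericytes with 35, each named by likeness to its markers. Cluster 4, which gave 163 of the 416 undifferentiated cells, had no marker of that class and 1 trophoblast marker among its 10 leading genes, with a median of 1833 UMIs per cell. Stromal results are therefore also given without cluster 4. Undifferentiated cluster 5, NK-like cluster 18 and epithelial clusters 9, 10, 11 and 15 also had no own marker among their leading genes. Cluster 3, with 187 of the 269 phagocyte-like cells, had 2 own and 2 neutrophil markers among them. These names were rebuilt from markers and may differ from the authors' own. Levels are UMIs summed over a class and scaled to the same total in each class (CPM), with exact 95% Poisson intervals in parentheses. A gene was called higher or lower between groups where the ratio reached 2-fold, its interval left out 1 and both sides together had at least 50 UMIs. The classes differ in depth, with median UMIs per cell from 2543 in phagocytes to 6839 in decidual stroma among the 5 largest. Shares of cells are therefore also given after thinning each cell to 2000 UMIs. Thinning leaves out cells with fewer UMIs and kept 1399 of 1812 cells, among them 149 of 269 phagocytes. Thinned values thus describe the deeper cells of a class and not all of them.

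**Figure D1:**
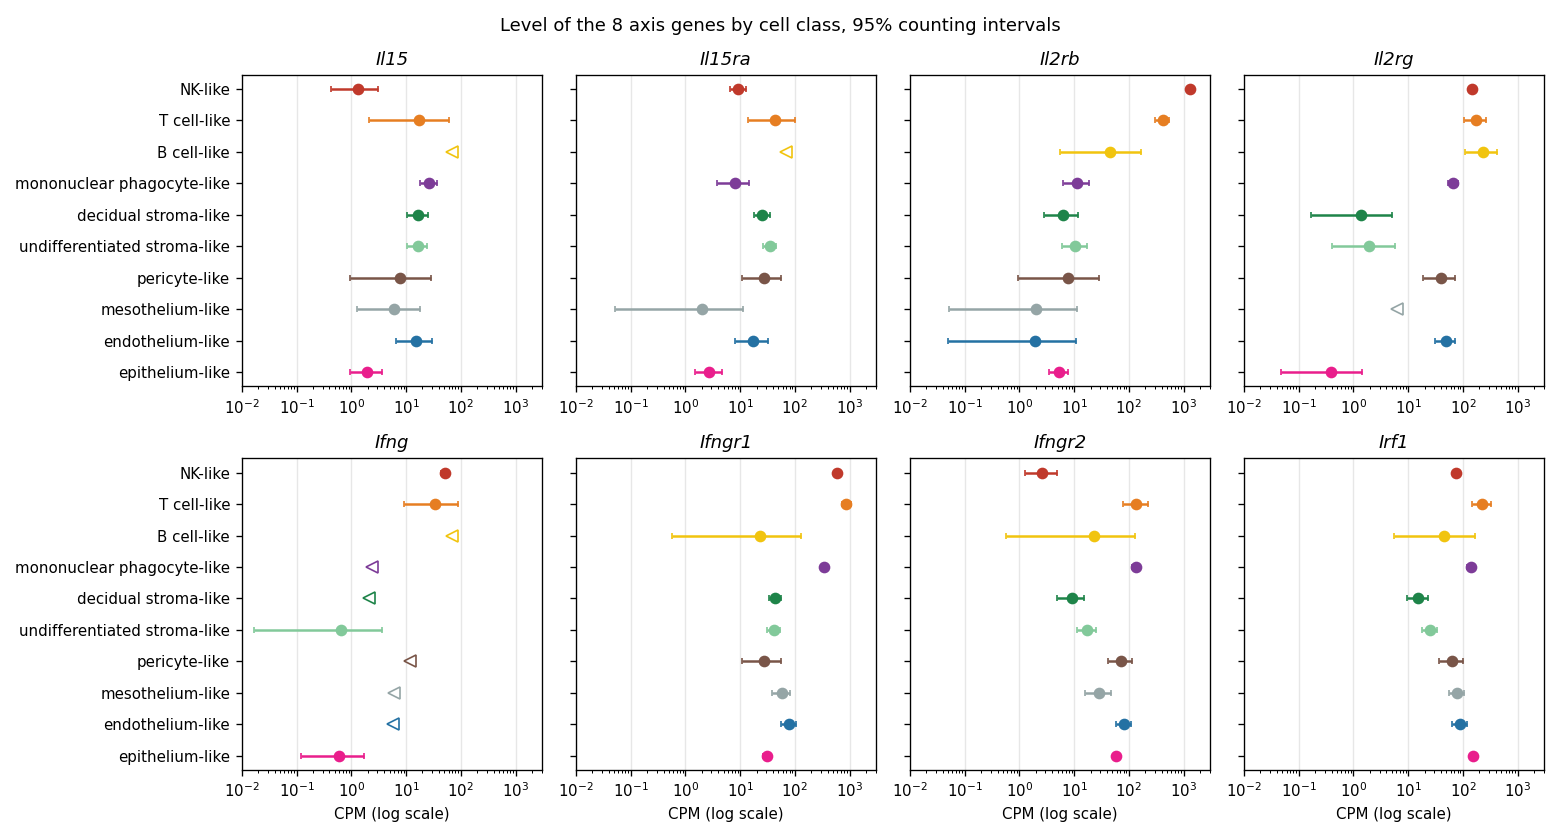
Level of each gene (CPM, log axis) in 10 cell classes of 1 library, with points for the summed level and bars for the exact 95% Poisson interval. Open triangles mark classes with 0 UMIs and are drawn at the level that 3 UMIs would give. Il2rb is highest in NK-like cells and Ifngr2 is lowest there, Ifng in NK-like cells overlaps T cell-like cells, while Il15 is spread over phagocytes, stroma and endothelium and Il15ra is higher in stroma than in phagocytes.

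The ligand Il15 was sparse, with 113 UMIs in 89 of the 1812 cells, and was spread over stroma, phagocytes and endothelium. Il15 stood at 26.5 CPM (18.2 to 37.2) in mononuclear phagocyte-like cells. It stood at 16.6 CPM (10.6 to 24.7) in decidual stroma and at 16.3 CPM (10.6 to 24.1) in undifferentiated stroma. The intervals of these classes overlapped, as did that of endothelium at 15.4 CPM (6.67 to 30.4). T cell-like and pericyte-like cells held 2 UMIs each and mesothelium 3, too few to place them. At the low end were epithelium at 1.96 CPM (0.939 to 3.60) and NK-like cells at 1.32 CPM (0.427 to 3.07), and B cell-like cells had 0 UMIs.

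Stroma as a whole held 43.4% of all Il15 UMIs and phagocytes 29.2%. Stromal Il15 was 12.5-fold the NK level (5.01 to 40.2). Phagocytes lay 1.61-fold above stroma (1.0 to 2.55), which was not called. That ratio moved with the choice of cells, from 0.696 in thinned cells to 2.37 in cells with at most 10% mitochondrial UMIs, where it was called higher. Between decidual and undifferentiated stroma the Il15 ratio was 1.02 (0.556 to 1.86). Without cluster 4 these ratios were 1.72 (1.05 to 2.78) and 1.18 (0.609 to 2.35), neither of them called. The decidual value rests on few cells. With at most 10% mitochondrial UMIs and clustering repeated, 48 cells were decidual and the ratio was 0.334 (0.0841 to 0.979). Without cells that held 3 or more markers of another lineage, 36 decidual cells were left and none of their UMIs was Il15.

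Shares of cells with an Il15 UMI were 8.55% in phagocytes (23 of 269), 10.7% in decidual stroma (16 of 149) and 5.29% in undifferentiated stroma (22 of 416). In NK-like cells, taken as a background class for this gene, the share was 1.62% (5 of 309) at a median depth of 5880 UMIs. After thinning it was 2.68% of 149 cells, 3.82% of 131 and 3.23% of 310 in the 3 source classes, in the same order. It was 0% in NK-like cells, where 0 of 262 allows a share of up to 1.15%. The order of phagocytes and stroma in the share thus differed from that in CPM, and no order among the sources is read from either.

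Il15ra, which encodes the presenting chain, was led by stroma and not by phagocytes. Il15ra stood at 34.6 CPM (25.9 to 45.3) in undifferentiated stroma and at 25.6 CPM (18 to 35.3) in decidual stroma, and stroma held 52.3% of its 172 UMIs. NK-like cells stood at 9.21 CPM (6.42 to 12.8), phagocytes at 8.03 CPM (3.85 to 14.8) and epithelium at 2.74 CPM (1.5 to 4.6). T cell-like cells at 42.9 CPM and pericyte-like cells at 27.5 CPM rested on 5 and 7 UMIs. Stromal Il15ra was 3.28-fold the NK level (2.2 to 5.0), in a comparison where 28.1% of 9817 genes were higher and 20% lower. The phagocyte level was 0.265 of the stromal one (0.123 to 0.511) and was called lower, as it was without cluster 4 at 0.281 (0.129 to 0.545), where 17% of 8895 genes were higher and 31.2% lower. The phagocyte call was lost in thinned cells, where the ratio was 0.691, and without cells with markers of another lineage, where it was 0.417. Within decidual stroma, cluster 1 stood at 33.5 CPM and cluster 17 at 8.69 CPM, on 37 UMIs in all, below the count needed for a call.

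Il15 and Il15ra were seen together in 7 of 149 decidual stroma-like cells, which is 7 of the 16 decidual cells with any Il15. They were seen together in 2 of 416 undifferentiated stroma-like cells and in 0 of 269 phagocytes, which allows a share of up to 1.12%. These counts follow depth as well as expression, since the median decidual cell held 6839 UMIs, against 3304 in undifferentiated stroma and 2543 in phagocytes.

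Il2rb, the signalling beta chain shared by the IL15 and IL2 receptors, was, like Ifng, largely restricted to NK-like cells. NK-like cells stood at 1326 CPM (1289 to 1363) and held 96.4% of its 5227 UMIs. T cell-like cells followed at 412 CPM (304 to 546), with an interval apart from that of NK-like cells. The NK level was 75.9-fold that of all other cells (65.7 to 88.3). An Il2rb UMI was seen in 95.5% of NK-like cells, and in 93.5% of those that could be thinned to 2000 UMIs.

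Undifferentiated stroma, epithelium, phagocytes and decidual stroma showed Il2rb in 3.61% to 6.04% of cells, at median depths of 2543 to 6839 UMIs. Their summed levels were 0.399% to 0.848% of the NK level. The 16 NK marker genes, among them granzymes and Klr receptors, lay at a median of 0.226% to 0.898% of their NK level in the same 4 classes. Il2rb was above the marker median in phagocytes, epithelium and decidual stroma and below it in undifferentiated stroma. It lay within the range of single markers in each, which in phagocytes ran from 0 to 62.8%. Expression of Il2rb in these 4 classes is not read from shares this close to those of NK markers, and the part of free RNA and of doublets in them was not tested.

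Il2rg, the chain common to the receptors of IL2, IL4, IL7, IL9, IL15 and IL21, was shared among immune classes. It stood at 230 CPM (110 to 422) in B cell-like, 172 CPM (105 to 265) in T cell-like and 143 CPM (132 to 156) in NK-like cells, with overlapping intervals. Phagocytes were lower at 65.8 CPM (52.3 to 81.7). The level in immune classes was 28.1-fold that in non-immune cells (20.5 to 39.3), where 14.7% of 12170 genes were higher and 29.9% lower, and stroma stood at 1.68 CPM and epithelium at 0.392 CPM. Endothelium and pericytes lay above stroma and epithelium. Endothelium stood at 48.3 CPM (31.2 to 71.2) and with a UMI in 18 of 67 cells. This was 33.6% of the NK level, while the NK markers in endothelium lay at a median of 0.236% of theirs. Pericyte-like cells stood at 39.3 CPM (18.8 to 72.2) on 10 UMIs, or 27.4% of the NK level, which overlaps endothelium, and mesothelium held 0. Both chains were seen in the same cell in 185 of 309 NK-like cells (59.9%), in 6 of 43 T cell-like cells and in 0 of 565 stromal cells.

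Ifng was found in 49 cells, of which 42 were NK-like. Of 203 Ifng UMIs, 193 were in NK-like cells, which stood at 50.8 CPM (43.9 to 58.5) with a UMI in 42 of 309 cells (13.6%). T cell-like cells held 4 UMIs in 2 of 43 cells, or 34.3 CPM (9.35 to 87.8), which is an interval that overlaps that of NK-like cells. Undifferentiated stroma held 1 UMI and epithelium 3, and decidual stroma, phagocytes, mesothelium, endothelium, pericytes and B cells held 0. In phagocytes, 0 UMIs in 269 cells allows a level of up to 2.41 CPM. The NK level was 55.0-fold that of all other cells (29.3 to 116). A single NK-like cell carried 97 of the 203 UMIs, and without it the ratio was 27.4 (14.3 to 59.0). Without that cell NK-like cells stood at 25.3 CPM (20.5 to 30.9) on 96 UMIs, below the 34.3 CPM of T cell-like cells, whose interval holds it. The order of NK-like and T cell-like cells in Ifng is therefore not read.

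Within the NK-like class Ifng was uneven. Cluster 2, with 165 cells and with Cd7 and the NK receptor gene Klra4 among its 3 leading genes beside Ifng itself, held 159 UMIs in 30 cells and stood at 235 CPM. Cluster 7, led by the granzyme genes Gzmf and Gzmg, held 15 UMIs in 5 of 105 cells and stood at 8.00 CPM, and cluster 18, led by replication-dependent histone genes such as Hist1h1b, held 19 UMIs in 7 of 39 cells and stood at 15.2 CPM. Cluster 2 was 21.6-fold above clusters 7 and 18 together (14.9 to 32.3), and 8.54-fold (5.53 to 13.4) without the cell of 97 UMIs. The ratio was 12 in thinned cells, with that cell still included. Depth ran the other way, with median UMIs of 3717 in cluster 2, 15313 in cluster 7 and 32489 in cluster 18. Even within cluster 2 the transcript was rare, since 135 cells had 0 UMIs, 15 had 1, 6 had 2 and 9 had 3 or more, and the top 5 cells held 75.5%.

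**Figure D2:**
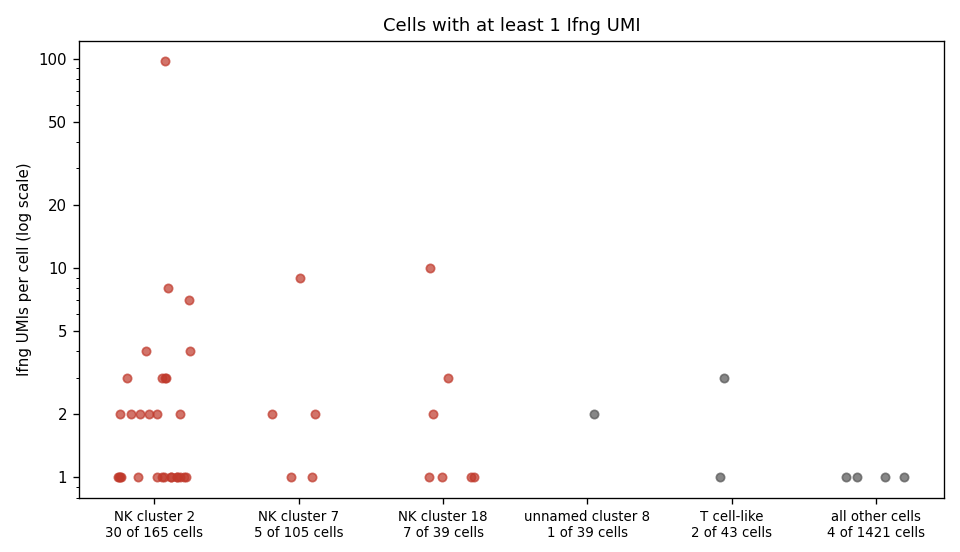
Ifng UMIs per cell (log axis) for every cell with at least 1 UMI, in the 3 NK-like clusters, the unnamed cluster, T cell-like cells and all other cells. Each point is a cell and the labels give cells with a UMI out of all cells. Cluster 2 holds 30 of the 49 positive cells and the single cell with 97 UMIs, and the next highest cell holds 10.

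Cluster 2 could hold T cells or other lymphocytes beside NK cells, and the T cell receptor chains Cd3d, Cd3e and Cd3g were counted there for this reason. A UMI of any of them was seen in 18 of 165 cluster 2 cells (10.9%), in 6 of its 30 Ifng-positive cells (20%), in 12 of its 135 Ifng-negative cells (8.89%) and in 33 of 43 T cell-like cells. Cells of cluster 2 without such a UMI stood at 250 CPM Ifng (211 to 293), and at 88.3 CPM (66.0 to 116) on 52 UMIs once the cell with 97 UMIs was left out. The 18 cells with such a UMI stood at 128 CPM (61.3 to 235) on 10 UMIs, an interval that overlaps the one without that cell. The cell with 97 UMIs had no Cd3d, Cd3e or Cd3g UMI, 6 UMIs of the NK receptor gene Ncr1 and 7 of Il2rb. The part of other lymphocytes in the level of Ifng was not tested beyond this count.

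The receptor chain Ifngr1 was highest in T cell-like, NK-like and phagocyte classes, although textbook accounts place the receptor on nearly all nucleated cells. T cell-like cells led at 875 CPM (713 to 1062), then NK-like cells at 592 CPM (568 to 617) and phagocytes at 343 CPM (311 to 377), and these 3 intervals did not overlap. Endothelium stood at 77.2 CPM, mesothelium at 57.2 CPM, decidual stroma at 44.3 CPM, undifferentiated stroma at 41.1 CPM and epithelium at 30.6 CPM (26.0 to 35.7), each overlapping its neighbour. B cell-like cells were lowest, at 23 CPM on 1 UMI. The stromal level was 0.0721 of the NK level (0.0598 to 0.0862), and decidual and undifferentiated stroma did not differ beyond counting error, with a ratio of 1.08 (0.748 to 1.55). In stroma this is 7.21% of the NK level, against a median of 0.591% for the NK markers there. Within NK-like cells cluster 2 stood at 1260 CPM and clusters 7 and 18 at 463 and 424 CPM, a ratio of 2.82 (2.58 to 3.07) for cluster 2 over both. The median cell held 3717 UMIs in cluster 2, 15313 in cluster 7 and 32489 in cluster 18. CPM is a share of all UMIs, so this ratio is not one of UMIs per cell.

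Its partner chain Ifngr2 had the opposite place in NK-like cells. Phagocytes stood at 133 CPM (114 to 155), endothelium at 81.1 CPM (58.4 to 110), pericyte-like cells at 70.7 CPM (41.9 to 112) and epithelium at 59.4 CPM (52.9 to 66.4). T cell-like cells stood at 137 CPM (78.4 to 223). Mesothelium at 28.6 CPM, undifferentiated stroma at 17 CPM (11.1 to 24.9) and decidual stroma at 9.0 CPM (4.79 to 15.4) were lower. NK-like cells came last at 2.63 CPM (1.26 to 4.84), with 10 UMIs in 8 of 309 cells, and the unnamed cluster had 0 UMIs.

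The phagocyte level of Ifngr2 was 50.6-fold the NK level (26.9 to 108) and the epithelial level 22.6-fold (12.1 to 47.5). The stromal level was 4.98-fold the NK level (2.44 to 11.2), on 49 UMIs in all, below the count needed for a call. NK-like cells were not shallow, at a median of 5880 UMIs, and T cell-like cells at a median of 2541 UMIs showed Ifngr2 in 12 of 43 cells. After thinning, Ifngr2 was seen in 23.5% of the 149 phagocytes left, 9.04% of 332 epithelial cells and 0.382% of 262 NK-like cells.

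Both receptor chains were seen in the same cell in 68 of 269 phagocytes (25.3%), 12 of 67 endothelial cells (17.9%), 53 of 374 epithelial cells (14.2%) and 9 of 43 T cell-like cells. In NK-like cells this was 8 of 309 (2.59%), which is every NK-like cell with Ifngr2. In stroma it was 11 of 565 (1.95%). Across the 21 clusters the log levels of Ifngr1 and Ifngr2 had a Pearson r of -0.15 and a Spearman rho of -0.13, in clusters of 1 library that share free RNA. By comparison, Il2rb and Il2rg had r = 0.73 and rho = 0.79, and Il15 and Il15ra had r = 0.66 and rho = 0.59.

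**Figure D3:**
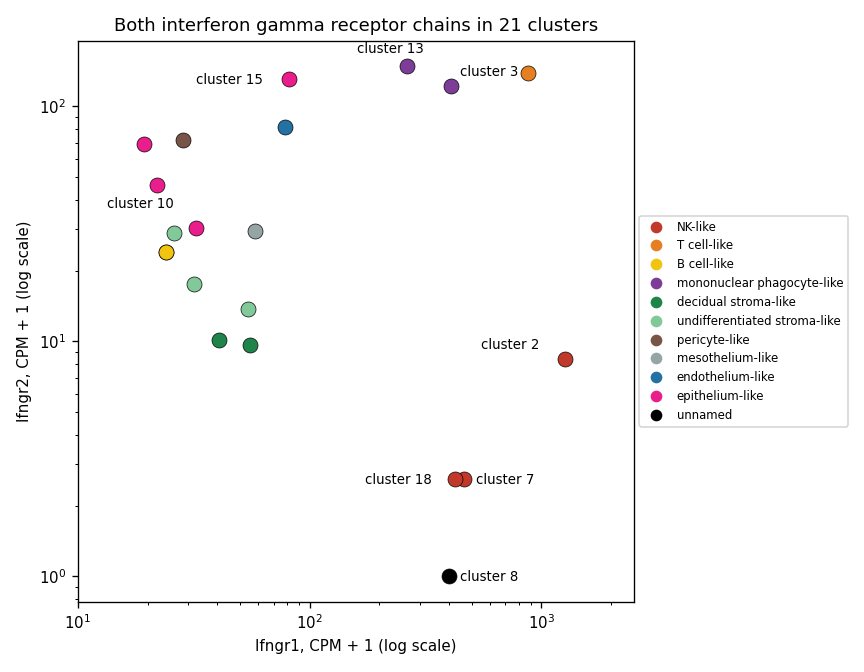
Ifngr1 against Ifngr2 (CPM + 1, both axes log) in 21 clusters coloured by class. The 3 NK-like clusters and the unnamed cluster sit at 397 to 1260 CPM of Ifngr1 and at 0 to 7.40 CPM of Ifngr2, whereas phagocyte and T cell-like clusters are high in both.

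Irf1, the transcription factor induced by interferon gamma, was high in T cell-like cells, epithelium and phagocytes and low in stroma. It stood at 223 CPM (146 to 327) in T cell-like cells, 150 CPM (139 to 161) in epithelium and 139 CPM (119 to 161) in phagocytes, which overlapped. Endothelium at 86.9 CPM (63.4 to 116), mesothelium at 77.7 CPM and NK-like cells at 75.0 CPM (66.5 to 84.2) formed the middle. Undifferentiated stroma stood at 24.8 CPM (17.6 to 34.0) and decidual stroma at 15.2 CPM (9.54 to 23.0), with a ratio of 0.614 (0.346 to 1.06) that was not called. Epithelium was 2.19-fold above all other cells (1.97 to 2.44). That level was carried by epithelial clusters 10 and 15, with 102 and 49 of the 374 cells, and clusters 0, 9 and 11 together stood lower. Endothelium was at 0.894 of all other cells (0.649 to 1.20), but at 2.15 on 17 endothelial cells after cells with markers of another lineage were left out. Among NK-like cells cluster 2 stood at 210 CPM, against 43.2 CPM in cluster 7 and 49.7 CPM in cluster 18, a ratio of 4.59 (3.62 to 5.84) over both. This too is a ratio of shares of all UMIs and not of UMIs per cell.

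The promoter of Irf1 is printed because interferon gamma is known to act on it through a gamma-activated site (GAS). The window is chr11:53769764-53770063 on the plus strand of GRCm38.p6, from RefSeq, and runs from 250 bases before to 50 bases after the start, with the match to TTCNNNGAA in capitals.
Irf1: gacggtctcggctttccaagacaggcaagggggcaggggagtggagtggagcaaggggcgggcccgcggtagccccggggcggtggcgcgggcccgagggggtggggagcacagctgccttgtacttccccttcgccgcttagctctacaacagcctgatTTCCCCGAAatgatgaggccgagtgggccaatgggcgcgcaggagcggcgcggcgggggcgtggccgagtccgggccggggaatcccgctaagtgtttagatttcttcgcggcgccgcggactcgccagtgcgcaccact
The match TTCCCCGAA begins 90 bases upstream of the start. Of 8 windows found for 6 of the 8 genes, the Ifng window held the only other match, TTCAGAGAA at 249 bases upstream. A second start of Irf1 and the windows of Il15ra, Il2rg, Ifngr1 and Ifngr2 held none. The core AANNGAAA of sites for the IRF family, searched on both strands, matched in both Il15ra windows and in those of Il2rg and Ifng, and in neither window of Irf1. Of all 32851 mouse windows of this length, 8.3% held the first motif, which reads the same on both strands, and 23.9% the second. Of 28 windows of 25 listed interferon gamma target genes, 28.6% held the first and 67.9% the second. A match in this window is a description of letters and not a measured site.

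Irf1 also responds to stimuli other than interferon gamma, so its level is given beside 19 immediate early and heat shock genes such as Fos, Junb, Egr1 and Hspa1a, which rise when cells are stressed or stimulated, also by dissociation. Their summed level was 17261 CPM in epithelium, 18116 CPM in phagocytes and 15320 CPM in T cell-like cells, where Irf1 was high. It was 3409 CPM in NK-like cells, 4711 CPM in undifferentiated stroma and 1670 CPM in decidual stroma. The summed level of the interferon gamma target genes was 8928 CPM in phagocytes, 7831 CPM in T cell-like cells and 5751 CPM in NK-like cells, but 1943 CPM in epithelium. It was 1007 CPM in undifferentiated and 886 CPM in decidual stroma. In NK-like cells most of this target sum came from the class I presentation genes B2m, H2-K1 and H2-D1, at 1658, 1447 and 972 CPM. Over the 21 clusters, log Irf1 had r = 0.70 and rho = 0.64 with the immediate early sum and r = 0.65 and rho = 0.65 with the target sum. The clusters share 1 library and 1 dissociation, and the part of the dissociation in the level of Irf1 was not tested.

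**Figure D4:**
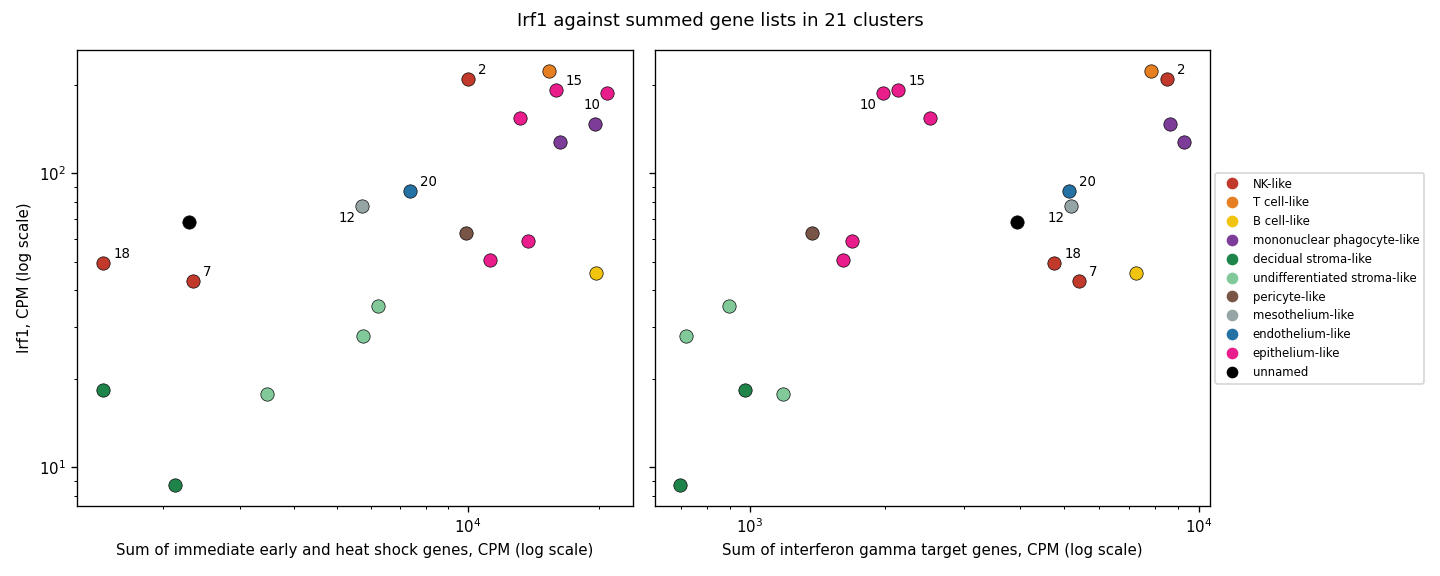
Irf1 (CPM, log axis) against the summed level of 19 immediate early and heat shock genes (left) and of the interferon gamma target genes (right) in 21 clusters, coloured by class and numbered for 7 of them. Epithelial clusters 10 and 15 are high in Irf1 at 188 and 192 CPM and in the immediate early sum, but low in the target sum, and NK-like cluster 2 is above clusters 7 and 18 in all 3 measures. The target sum of these NK-like clusters is weighted by B2m, H2-K1 and H2-D1, and single target genes were divided between them.

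The rest of the pathway was counted from 7 lists with 117 genes, of which 116 were in the matrix. In NK-like cells over all other cells, 4 of the 8 axis genes were higher (Ifng, Ifngr1, Il2rb and Il2rg) and 2 were lower (Il15 and Ifngr2), where 11.6% of 12179 genes tested were higher and 34.2% lower. Of 18 genes of IL15 receptor signalling and lymphoid factors, 10 were higher and 1 lower. Their median log2 ratio was 1.26, beside -0.26 over all genes. Eomes and Tbx21, transcription factors of NK cell development, stood at 238 and 87.6 CPM in NK-like cells and were 136-fold (86.4 to 226) and 52.7-fold (32.8 to 90.0) above all other cells. Jak3, the kinase that binds the common gamma chain, was 3.11-fold higher. Socs2, a feedback inhibitor of STAT5, was the 1 lower gene, at 18.9 CPM against 156 CPM.

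A list of 12 genes held cytokines of the common gamma chain and their partner chains. It also held Tslp and Crlf2, although the receptor for thymic stromal lymphopoietin joins Crlf2 to Il7r and does not use the gamma chain. Of these, 5 could be measured (Il2ra, Il4ra, Il7r, Il21r and Crlf2). In NK-like cells 3 were higher and 1 lower, and Crlf2 was among the higher ones at 54.7 against 24.9 CPM. Il21r, the IL21 receptor, was 7.62-fold higher (5.77 to 10.2), and Il2ra, the alpha chain of the IL2 receptor, stood at 32.4 CPM against 4.34 CPM. Il7r was the lower one, at 0.789 CPM against 22.7 CPM. In phagocytes over all other cells 5 of the 5 were higher, where 11.1% of genes were higher and 30.2% lower, led by Il7r at 91.5 CPM against 10.1 CPM and Crlf2 at 102 CPM against 26.2 CPM. Il7r was not particular to phagocytes, since it also led the genes of the T cell-like cluster relative to all other clusters.

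Some inducers of interferon gamma were divided between senders and receivers. The IL12 receptor chains Il12rb1 and Il12rb2 stood at 40.3 and 20.8 CPM in NK-like cells, 43.6-fold (23.1 to 92.7) and 20.5-fold (10.8 to 42.6) above all other cells. Stat4, which carries the IL12 signal, was 8.49-fold higher in NK-like cells. The ligand chain Il12b stood at 85.9 CPM in phagocytes, which held 107 of its 109 UMIs, and NK-like cells held 0. Ebi3, which pairs into IL27, stood at 65.0 CPM in phagocytes with 81 of 83 UMIs, but Il27 itself had only 1 UMI in NK-like and 11 in all other cells. The other chain of IL12, Il12a, had levels of at most 2.04 CPM in every class. Il18 stood at 83.8 CPM in mesothelium and 36.9 CPM in phagocytes, against 0.789 CPM in NK-like cells. The IL18 receptor chain Il18r1 was not called, at 8.42 CPM in NK-like cells against 9.33 CPM in all other cells. The other chain of that receptor, Il18rap, was 7.12-fold higher in NK-like cells (4.53 to 11.5), at 18.4 against 2.59 CPM. In NK-like cells 5 of 10 measured inducers were higher and 4 lower, and in phagocytes 4 were higher and 2 lower.

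Of 13 genes of interferon gamma signalling, 3 were higher and 3 lower in NK-like cells, and 6 were higher and 0 lower in phagocytes. Irf8, a factor of myeloid and lymphoid cells, stood at 1417 CPM in NK-like cells, 20.2-fold (18.7 to 21.8) above the rest, and the phosphatase gene Ptpn6 was 3.82-fold higher. Socs3, a feedback inhibitor, was lowest relative to other cells, at 19.2 CPM against 114 CPM. Jak2, the kinase that binds Ifngr2, was also lower in NK-like cells, at 75.3 CPM, with 473 CPM in epithelium. In phagocytes Irf7 stood at 159 CPM against 10.0 CPM and Stat2 at 158 CPM against 26.6 CPM.

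Of 31 measured interferon gamma target genes, 16 were higher and 6 lower in NK-like cells, and their median log2 ratio was 1.04. Gbp8 and Gbp4, guanylate-binding proteins, were 11.4-fold (7.68 to 17.4) and 8.12-fold (6.41 to 10.4) higher. Serping1, a complement inhibitor, had 0 UMIs in NK-like cells. All other cells stood 145-fold above the level that 3 UMIs over the class would give, and the exact interval of the ratio begins at 118-fold. In phagocytes 17 were higher and 2 lower, with a median of 1.13 beside -0.47 over all genes. Ciita, the master regulator of class II genes, stood at 86.7 CPM against 1.12 CPM, and the chemokine gene Cxcl10 at 872 CPM against 38.1 CPM. All 6 class II presentation genes were higher in phagocytes and all 6 were lower in NK-like cells, as Cd74 shows with 3.68 CPM in NK-like cells against 600 CPM in all other cells. Many class I and class II genes are set by cell lineage as well, and the part of interferon gamma in these levels was not tested.

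Epithelium as a class joined a high Irf1, carried by its clusters 10 and 15, to low target genes. There 0 of 31 target genes were higher and 25 lower, where 11.4% of genes were higher and 27.8% lower. The median log2 ratio of the targets was -2.18, beside -0.37 over all genes. In the same comparison 13 of 19 immediate early and heat shock genes were higher and 1 was lower. Among the axis genes Irf1 alone was higher in epithelium, and 6 were lower. In stroma over all other cells, where 17.7% of genes were higher and 22.7% lower, Il15 and Il15ra were higher and the other 6 axis genes lower, and 1 target gene was higher and 23 lower. Without cluster 4 the axis genes had the same directions, and 1 target gene was higher and 24 lower. In endothelium, where 13.8% of genes were higher and 15.1% lower, Ifngr2 was higher and Ifng, Ifngr1 and Il2rb were lower, and 8 target genes were higher and 5 lower.

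Decidual against undifferentiated stroma showed no call among the axis genes, of which 3 reached the UMI minimum, where 8.75% of 7455 genes tested were higher and 18.4% lower. The median mitochondrial share of a cell was 12.1% in decidual and 4.29% in undifferentiated stroma, and its part in these counts was not tested. Of 12 measured genes of IL15 receptor signalling and lymphoid factors, 1 was higher and 6 lower. Id2, an inhibitor of helix-loop-helix factors, stood at 50.5 CPM in decidual and 7.18 CPM in undifferentiated stroma, and Socs2 at 74.7 against 560 CPM. Il4ra stood at 84.4 against 41.8 CPM. Of 11 measured target genes 2 were higher and 3 lower. Wars, a tRNA synthetase gene, was 3.42-fold higher (2.32 to 5.15) and the proteasome activator gene Psme2 2.50-fold higher (1.75 to 3.62), and the class I gene H2-D1 was lower, at 33.2 against 131 CPM. Of the 19 immediate early and heat shock genes 0 were higher and 13 were lower, among them Klf6 at 67.1 against 285 CPM. In cells of the same clusters with at most 10% mitochondrial UMIs, 59 decidual and 389 undifferentiated, the first list had again 1 higher and 6 lower, the targets 3 higher and 3 lower of 10, and the immediate early and heat shock genes 0 higher and 11 lower. In these cells Il15ra was lower in decidual stroma, at a ratio of 0.439 (0.219 to 0.819), and was the 1 axis gene called. Without cluster 4 the 3 lists had 1 higher and 6 lower, 2 higher and 4 lower, and 0 higher and 11 lower, with no call among the axis genes.

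Inside the NK-like class, cluster 2 over clusters 7 and 18 was compared in 7001 genes, of which 13.8% were higher and 16.8% lower. Levels here are shares of all UMIs and not UMIs per cell, and the median cell of cluster 2 held the fewest UMIs. Ifng, Ifngr1 and Irf1 were higher, and Il2rb at a ratio of 1.5 (1.4 to 1.6) and Il2rg at 1.86 (1.53 to 2.24) were under 2-fold. Of 18 genes of IL15 receptor signalling and lymphoid factors 9 were higher and 0 lower, with Cish, a STAT5 target, at 78.5 against 13.8 CPM. Il2ra went the other way, at 7.40 against 37.8 CPM. Il18rap and Il12rb2, receptor chains for IL18 and IL12, stood at 78.5 against 5.44 CPM and at 63.7 against 11.5 CPM. Of 13 signalling genes 7 were higher, with Socs1 at 60.7 against 11.5 CPM. Target genes were divided, with 5 of 22 higher and 4 lower. The chemokine gene Cxcl10 and the class I gene H2-K1 were 6.40-fold and 2.34-fold higher, and Psmb8 and Psme2 of the immunoproteasome were at 0.446 and 0.352 of the level in clusters 7 and 18. The immediate early and heat shock genes were higher in cluster 2 for 18 of 19, with a summed level of 9989 CPM against 2337 CPM in cluster 7 and 1459 CPM in cluster 18. Their part in the higher Ifng, Irf1 and Socs genes of cluster 2 was not tested.

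**Figure D5:**
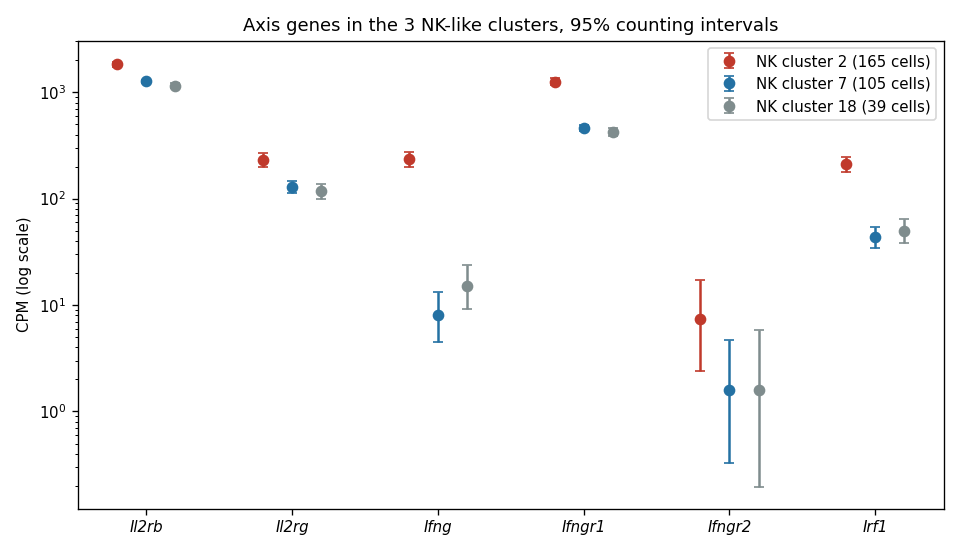
Levels of 6 axis genes (CPM, log axis) in the 3 NK-like clusters, with exact 95% Poisson intervals. Cluster 2 lies above clusters 7 and 18 by 21.6-fold in Ifng, 4.59-fold in Irf1 and 2.82-fold in Ifngr1, and by less than 2-fold in Il2rb and Il2rg. These are ratios of shares of all UMIs and not of UMIs per cell.

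The genes with the most similar pattern over the 21 clusters were ranked by the Pearson correlation of log2 (CPM + 5) among 10635 genes. Il2rb was nearest to Sh2d2a at r = 0.97, Nkg7 and Tnfrsf9, and Il2rg to Fli1 at r = 0.95, Klhl6 and Tgfb1. Ifng was nearest to Trdc, the constant region of the T cell receptor delta chain, at r = 0.93, then Klrc2 and Samd3. Ifngr1 was nearest to Fam78a at r = 0.95 and to Ikzf1, and Ifngr2 to Abca3 at r = 0.84, Samd4b and Tmem50b. Irf1 was nearest to the class I gene H2-Q4 at r = 0.87, then Dhx38 and the immediate early gene Junb. Il15 was nearest to Slc36a1 at r = 0.85, Lpcat1 and Acox3, and Il15ra to F2r at r = 0.84, Adgrl1 and Slc29a1. With a pseudocount of 1 CPM, 15 of these 24 pairs were again among the nearest. For Il2rb 0 of 3 stayed, with Cst7, Cd160 and Ptprcap nearest instead, for Irf1 3 of 3 stayed, and for each of the other 6 genes 2 of 3 stayed.

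In GENCODE M21 on GRCm38 the genes lie on 7 chromosomes, with Ifng and Ifngr1 on the same one. Ifng is at chr10:118441046-118445892 and Ifngr1 at chr10:19591949-19610229, both on the plus strand, and Ifngr2 is at chr16:91547072-91565623 and Irf1 at chr11:53770014-53778374, also on the plus strand. Il15 is at chr8:82331632-82403222 on the minus strand, Il15ra at chr2:11705290-11734317 on the plus strand, Il2rb at chr15:78479256-78495271 and Il2rg at chrX:101264378-101268255, both on the minus strand. The 3' counts are of whole genes and do not separate isoforms.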

How the data were processed

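The authors deposited UMI counts per gene and barcode in sparse form. Cell Ranger 4.0.0 wrote them, per the file headers, and the genome build was mm10, per the submitters' processing notes. No annotation release is given in the sources used here. Features sharing a symbol were summed, which took 32287 features to 32247 symbols. Cells were kept with at least 500 genes and at most 20% mitochondrial UMIs (1825 of 2775 barcodes). Scrublet, at an expected rate of 5%, removed 13 (0.712%), so undetected doublets may remain, and 1812 cells with 14622717 UMIs were left. Counts were scaled to 10000 per cell and logged, and Leiden at resolution 1 (seed 0), on 15 neighbours in 30 principal components of 2000 variable genes, gave 21 clusters.

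Clusters took the name of the set, among 25 sets with 193 markers, with the highest mean log2 (CPM + 5) over the median of the clusters. A stromal cluster was called decidual where its decidual score among stromal clusters was above 0 and above its undifferentiated score, a rule set after marker levels were seen. A cluster of NK score with a median of 1294 UMIs stayed unnamed. Ratios have exact conditional binomial 95% intervals and shares Clopper-Pearson intervals, and the limit for a count of 0 uses 3 counts. Cells are not replicates, so no test was made. The ratio and size rule were run on simulated Poisson counts of summed classes. Those counts hold no variation between cells, so they do not cover genes carried by few cells, such as Ifng.

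In each list and in NK-like, phagocyte and decidual comparisons, the 2 highest and the 1 lowest gene that met the size rule are named, with the 3 genes nearest to each axis gene. Other named list genes, and the comparison of NK-like clusters, were chosen after values were seen. The 8 genes and the lists were chosen with earlier results of these data known. Tools were scanpy 1.11.5, scipy 1.17.1, numpy 2.4.6, igraph 0.11.9, scikit-learn 1.9.0, pandas 2.3.3, anndata 0.12.19 and matplotlib 3.10.9 on Python 3.11.15. The IRF core searched in promoters replaced a longer interferon response motif after the matches of that one had been seen. Alternatives in filters, clustering, thinning and pseudocount were run. Values of some items are not reported here.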

Additional observations from a re-analysis of the deposited data

How the results depend on the processing

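Of 173 alternative values, 153 kept their direction and their side of the size rule, or moved by less than counting error. For means over cells the only rule was the 2-fold limit, with no interval and no UMI minimum. Il15 in phagocytes over stroma, at 1.61 and not called, was called at 2.37 with at most 10% mitochondrial UMIs and at 2.19 over all deposited barcodes. It was 2.18 as a mean over cells, past the 2-fold limit, and 0.696 in thinned cells. Il15 in decidual over undifferentiated stroma, at 1.02, was 0.334 with at most 10% mitochondrial UMIs, 0.481 over all barcodes and 0 without cells holding 3 or more markers of another lineage. That last filter left out 870 of 1812 cells. Under it Irf1 in endothelium over all other cells turned from 0.894 to 2.15, and Il15ra in phagocytes over stroma was 0.417 and not called, as it was at 0.691 in thinned cells. Ifngr2 in stroma over NK-like cells passed the UMI minimum and was called at 3.47 over all barcodes and at 4.13 with doublets kept. As a mean over cells it was 2.98, past the 2-fold limit. Thinning to 1000 instead of 2000 UMIs lowered the share of cells with a UMI to 4.14% for Il15ra in undifferentiated stroma, 72.3% for Il2rb, 13.9% for Il2rg and 55.8% for Ifngr1 in NK-like cells, 8.09% for Ifngr2 in phagocytes and 11.8% for Irf1 in epithelium. With a pseudocount of 1 CPM 15 of 24 nearest genes were shared. Beyond the fewer cells or UMIs that each setting keeps, the cause was not tested. Leaving out cluster 4 of undifferentiated stroma, chosen after the data were seen, changed no call among the 10 ratios it was run for. The NK results for Il2rb, Ifng and Ifngr1 kept their calls under every alternative that was run. Il15 and Il15ra are limited by their 113 and 172 UMIs.

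No paired analysis was possible because 1 library was analysed and the labels give no replicate numbers.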
